A study of Mus musculus with 2 samples.

Results

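The genes described here build the Z-disc, the M-band and the thin filament of the heart muscle sarcomere, together with titin, the titin-binding proteins and the ubiquitin ligases of the M-band. The members are a fixed list of 39 symbols for sarcomere genes other than myosins, troponins and tropomyosins, each matched by symbol to 1 row of the authors' deposited table. All 39 were found among its 38355 genes, and 35 had an adjusted p-value. RNA was sequenced from cardiac ventricles of C57BL/6 mice aged 16 weeks. The labels name 1 vTBX5KO sample, which carries Myh6-MerCreMer and Tbx5LDN/LDN, and 1 Flox sample, which carries Tbx5LDN/LDN alone. By these labels the study asks what loss of the T-box factor Tbx5 does to gene expression in the adult ventricle. Myh6-MerCreMer is a ligand-dependent Cre recombinase behind a cardiomyocyte promoter, so other cells of the ventricle are not its target. No sample with Myh6-MerCreMer and intact Tbx5 is named, so presence of the recombinase and loss of Tbx5 cannot be told apart. The protocol given with both samples has the agent labelled TX, 30 mg/kg daily over 3 days in mice of 12 weeks, and tissue taken 4 weeks after that.

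The values come from 1 table that compares a group B with a group A. No label or header used here says which letter is vTBX5KO and which is Flox, and this was not inferred from the values, so each direction below is that of group B relative to group A. For each gene the table holds a normalized count averaged across libraries, a fold change on the log2 scale and an adjusted p-value, and nothing per library. Low means could be resolved into the whole reads of 6 libraries, called B1 to B3 and A1 to A3 here, with the deepest of each letter first. Their size factors, the depths relative to one another, were 0.89 to 1.56 in group B and 0.61 to 1.16 in group A. Total reads are not stated. Whether the libraries of one letter were separate animals is not stated either, so the p-values speak of the spread among these libraries, part of which may be technical. RNA of whole ventricle does not separate fewer cells of a type from less RNA per cell. All 11 ventricular cardiomyocyte markers were read, with Myh6 at a mean of 579178 normalized counts according to the authors' deposited table.

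In the sarcomere, actin thin filaments are anchored at the Z-disc by alpha-actinin, and leiomodins and tropomodulins set their length at the free ends. Titin spans from the Z-disc to the M-band, where myomesins crosslink the thick filaments. Several Z-disc and titin-binding proteins, among them the FHL, muscle ankyrin repeat and MuRF families, also occur outside the sarcomere and are studied as sensors of load. Many sarcomere genes are known targets of the serum response factor SRF, which binds the CArG box, and of MEF2 factors.

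The sequences before the start sites are shown for Fhl2, Actc1 and Lmod2, the 3 members that were lower in group B with the smallest adjusted p-values. They are the 250 bases before the RefSeq start on GRCm38.p6, 5′ to 3′ on the strand of the gene, with each match to a searched motif in capitals. The capitals in Fhl2 and Actc1 are CArG boxes, and Lmod2 has no match to any motif searched.
Fhl2, chr1:43163962-43164211, minus strand: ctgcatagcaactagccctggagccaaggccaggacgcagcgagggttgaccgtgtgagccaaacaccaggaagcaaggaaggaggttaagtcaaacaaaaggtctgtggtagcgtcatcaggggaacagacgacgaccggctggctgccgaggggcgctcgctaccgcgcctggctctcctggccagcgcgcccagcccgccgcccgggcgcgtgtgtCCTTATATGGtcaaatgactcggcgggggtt
Actc1, chr2:114052876-114053125, minus strand: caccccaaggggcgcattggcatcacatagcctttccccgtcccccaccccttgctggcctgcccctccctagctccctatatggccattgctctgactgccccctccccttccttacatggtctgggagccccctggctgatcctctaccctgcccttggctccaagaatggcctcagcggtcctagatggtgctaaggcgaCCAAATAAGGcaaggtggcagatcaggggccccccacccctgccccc
Lmod2, chr6:24597521-24597770, plus strand: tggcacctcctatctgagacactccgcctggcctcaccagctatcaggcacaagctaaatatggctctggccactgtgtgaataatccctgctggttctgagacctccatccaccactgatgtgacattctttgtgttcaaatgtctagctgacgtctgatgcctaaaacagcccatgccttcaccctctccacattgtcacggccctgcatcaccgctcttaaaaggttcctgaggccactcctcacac
The CArG box in the window shown for Fhl2 lies 31 to 22 bases before the start and that of Actc1 47 to 38 bases before it. Fhl2 has a further RefSeq start, outside the span of the gene in the authors' deposited table, whose window is not shown. That window holds another CArG box 96 to 87 bases before the start, with a match each to AGATAA and TATAAA. Of its 250 bases, 223 are annotated exon of Fhl2 in GENCODE M21. The RefSeq start of Actc1 lies inside the span that the authors' deposited table gives the gene.

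RefSeq promoters were at hand for 28 members, with 39 start sites, and for 6 of the 8 members called below. Each motif was searched on both strands. A CArG box stood in 9 of the 39 windows, those of Acta1, Actc1, Fhl1, Fhl2, Ldb3, Myom1 and Nebl, against 1.47% of all 32851 windows of the same length. The windows of Ldb3 overlap and share 1 box, so the 9 windows hold 8 distinct boxes. Some windows with a box reach into annotated exons of their own gene. These exons cover 223 bases of the Fhl2 window not shown, 87 of that of Fhl1 and 12 of that of Actc1. Exon overlap was looked up for windows of called members only. The MEF2 site stood in 6 of the 39, those of Mybpc3, Myoz2, Synpo2, Synpo2l, Ttn and Xirp2, against 0.508% of all windows. The T-box core AGGTGT stood in 3 of the 39, in Csrp3, Nebl and Pdlim3, none of them called, against 11.8% of all windows. The GATA site AGATAA stood in 7 of the 39, against 9.99% of all windows. The M-CAT element CATTCC stood in 9 of the 39, against 12.6% of all windows. The letters TATAAA stood in 7 of the 39, against 12.4% of all windows. CArG boxes are present in members called lower (Fhl2 and Actc1), in a member called higher (Fhl1) and in members not called, such as Acta1. These are matches of letters, with no binding measured.

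Of the 35 tested members, 6 fell and 2 rose in group B at an adjusted p under 0.05 according to the authors' deposited table, and 27 were not called. Fhl2, Ankrd23, Lmod2, Actc1, Fhod3 and Trim54 were lower, and Fhl1 and Trim55 were higher. Over all 13230 tested genes, 2.49% were lower and 1.5% higher by the same rule, 3.98% in all. The members are highly expressed genes. Among the 2809 tested genes whose mean was 1000 or more, 5.16% were lower and 0.783% higher. All 8 called members lay in that range, with 32 of the tested members.

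By an adjusted p under 0.01, 1 member was higher and 3 were lower, against 0.733% and 1.49% of all tested genes (2.22% in all). By one under 0.1, 2 were higher and 7 lower, against 2.32% and 3.59% (5.91% in all). With an absolute log2 fold change of 0.5 or more added to the threshold of 0.05, 2 were higher and 4 lower, against 1.28% and 1.53% (2.8% in all). The median log2 fold change of the tested members was -0.09, against -0.00 over all tested genes. Among the 10% of coding genes with the highest means, where most members lie, the median was -0.07. Of the 35 tested members, 22 (62.9%) were below 0, against 50.1% of all tested genes, and this share was not computed for genes of like level. The median of absolute log2 fold changes was 0.19 in the members and 0.16 over all tested genes. No standard error is given by the authors' deposited table, so the largest one that each adjusted p allows was computed, and for the members it ran from 0.10 to 0.30 on the log2 scale.

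**Figure D1:**
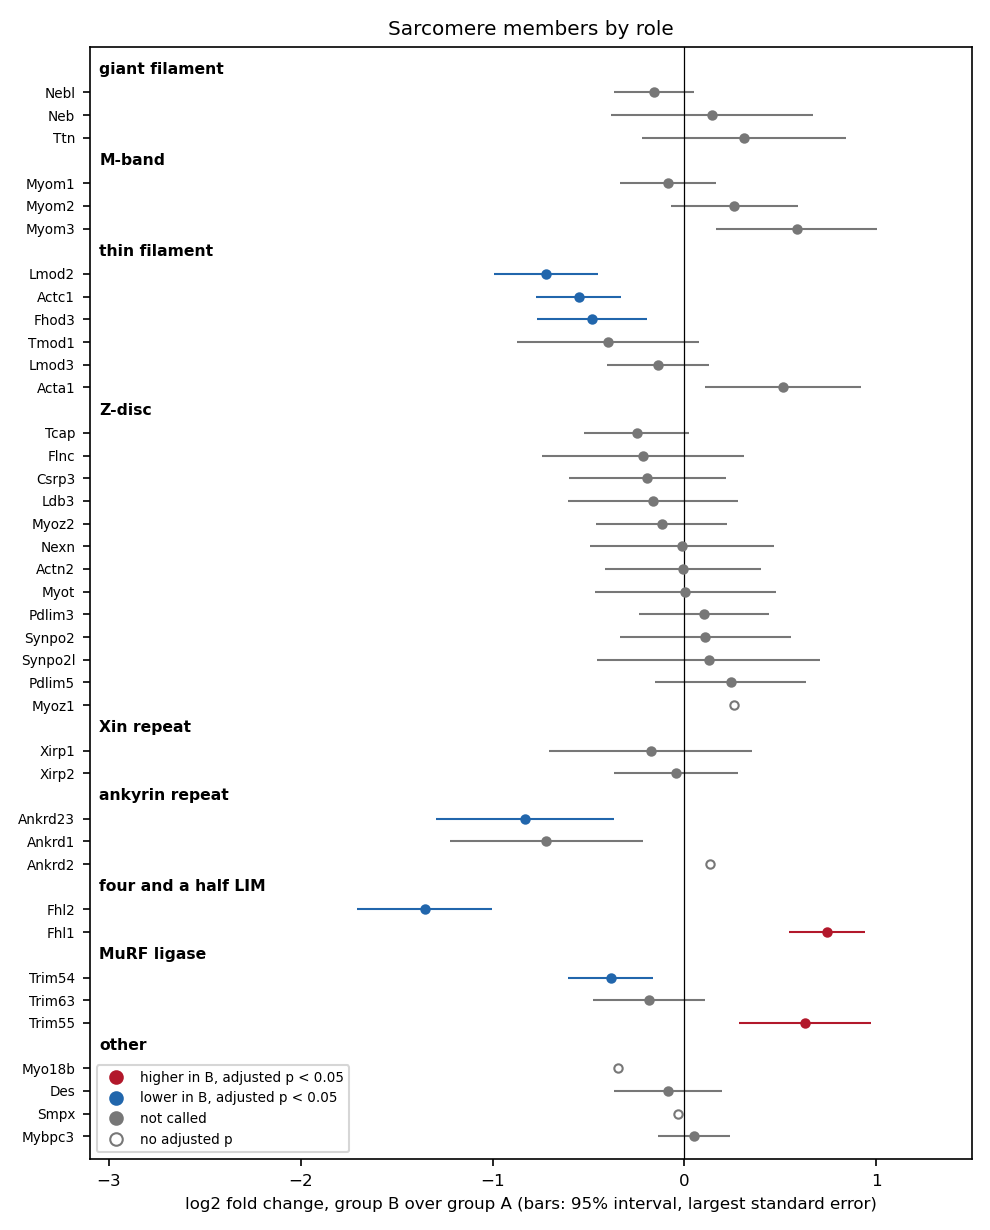
Log2 fold change of group B over group A for the 39 members, ordered by role, with bars for the 95% interval from the largest standard error that the adjusted p allows (red, called higher in group B; blue, called lower; grey, not called; open, no adjusted p). The calls lie in the thin filament, ankyrin repeat, FHL and MuRF groups, and the 12 tested Z-disc members lie between -0.25 and 0.24. Bars are not adjusted for the number of genes, so those of Acta1, Ankrd1 and Myom3 exclude 0 without a call.

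**Figure D2:**
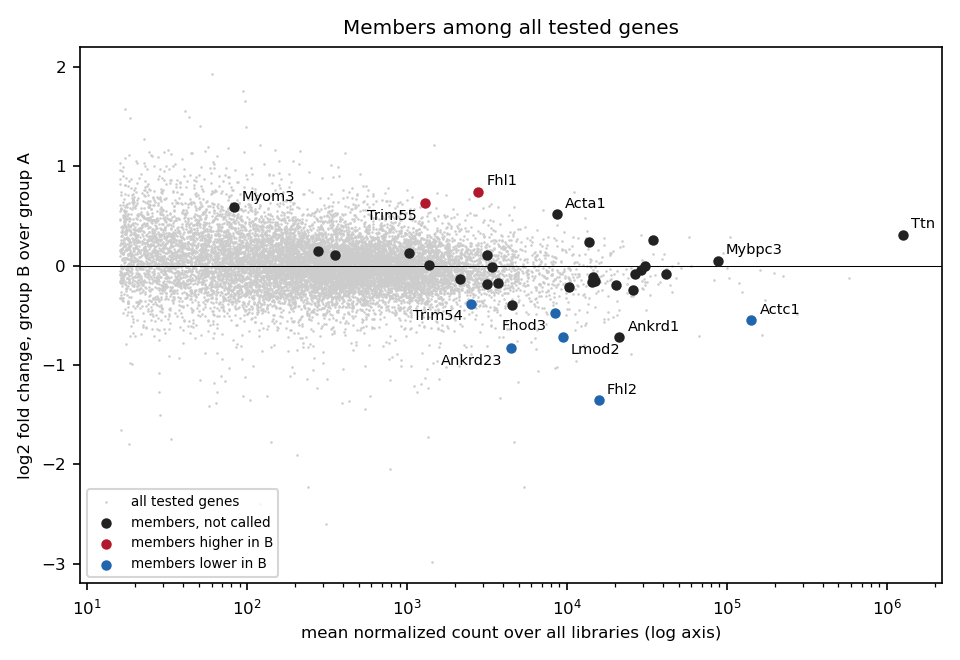
Mean normalized count over all libraries (log axis) against the log2 fold change of group B over group A, with all tested genes as small grey points and the tested members as large points. The members sit at the high end of expression, with Ttn furthest to the right at a mean of 1263444, and Fhl2 is the lowest point among genes with a mean of 10000 or more.

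The FHL proteins, built of LIM domains that bind titin and signalling proteins, gave the pair of members with the smallest adjusted p-values, in opposite directions. Fhl2 (ENSMUSG00000008136, chromosome 1, 43123074 to 43163961 on GRCm38), the FHL protein known for its abundance in heart, had a mean of 15849 normalized counts and was 2.56-fold lower in group B according to the authors' deposited table. This is a log2 fold change of -1.35 (standard error 0.18 or less, adjusted p 1.64e-11). None of the 190 tested genes with a mean of 10000 or more had a lower log2 fold change, and 20 of all tested genes did. Fhl1 (ENSMUSG00000023092, chromosome X, 56731787 to 56793346), known from skeletal muscle and heart, had a mean of 2782 and was 1.67-fold higher in group B according to the authors' deposited table. That is 0.74 on the log2 scale (standard error 0.10 or less, adjusted p 1.30e-10). Of the 2809 tested genes whose mean was 1000 or more, 2 had a higher log2 fold change than Fhl1.

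Levels per group were derived from the mean and fold change of the authors' deposited table, taking 3 libraries in each group, and set per kilobase of exon in GENCODE M21. They rest on shrunken fold changes and carry no replicate error. The exon length merges the exons of all isoforms of a gene in that annotation. The implied level of Fhl2 was 4698 per kb in group B and 12011 per kb in group A. That of Fhl1 was 1156 per kb in group B and 690.1 per kb in group A. Fhl1 thus made up 19.7% of the summed FHL level in group B and 5.43% in group A, with Fhl2 the more abundant of the pair in both groups. No run of 50 bases of either transcript occurs in another gene of the annotation, and the same holds for Actc1, Lmod2, Fhod3 and Trim55.

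**Figure D3:**
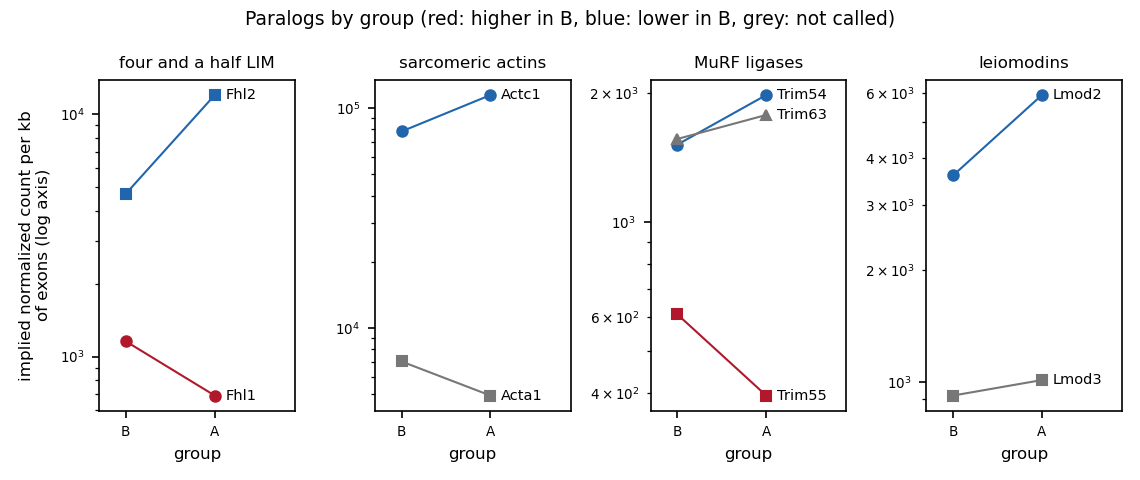
Implied normalized count per kilobase of exon (log axes) in group B and group A for 4 families of related members. Fhl1 and Trim55 (red) were called higher in group B, Fhl2, Actc1, Trim54 and Lmod2 (blue) were called lower, and Acta1, Trim63 and Lmod3 (grey) were not called.

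Among the genes of the thin filament and its ends, 3 of 6 fell in group B, none rose and 3 were not called. Of all tested genes 2.49% were lower, and of those with a mean of 1000 or more 5.16%. Lmod2 (ENSMUSG00000029683, chromosome 6, 24597771 to 24605414), the cardiac leiomodin that nucleates and lengthens actin filaments at their pointed ends, had a mean of 9411 and was 1.65-fold lower in group B according to the authors' deposited table. On the log2 scale this was -0.72 (standard error 0.14 or less, adjusted p 3.18e-05). Actc1 (ENSMUSG00000068614, chromosome 2, 114047282 to 114053548), the cardiac alpha-actin of the filament itself, had a mean of 142158 and was 1.46-fold lower according to the authors' deposited table. This is a log2 fold change of -0.55 (standard error 0.11 or less, adjusted p 1.24e-04). Fhod3 (ENSMUSG00000034295, chromosome 18, 24709445 to 25133500), a formin needed for thin filament assembly in cardiomyocytes, had a mean of 8493 and a log2 fold change of -0.48 according to the authors' deposited table (standard error 0.15 or less, adjusted p 0.0301). The pointed-end cap Tmod1 was not called, at -0.40 with an adjusted p of 0.475 according to the authors' deposited table. Its exons share 40.8% of their length with Tstd2 on the opposite strand, and reads of both cannot be told apart if the library kept no strand. Lmod3, a leiomodin known mainly from skeletal muscle, stood at -0.14 according to the authors' deposited table, with an interval from -0.40 to 0.13 and an adjusted p of 0.743.

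The sarcomeric actins differed in level. Actc1 had the highest level per kilobase of all 39 members, 96509 normalized counts per kb over all libraries, which was 16.1 times that of Acta1, the skeletal alpha-actin that the ventricle also expresses. The implied level of Actc1 was 78318 per kb in group B and 114701 per kb in group A. That of Acta1 was 7038 per kb in group B and 4925 per kb in group A. Acta1 was not called: its log2 fold change was 0.51 according to the authors' deposited table (standard error 0.21 or less, adjusted p 0.159). The interval, not adjusted for the number of genes, ran from 0.11 to 0.92. Acta1 made up 8.25% of the summed level of both actins in group B and 4.12% in group A. The difference between Acta1 and Actc1 in fold change was not tested. Of the 50-base runs of the Acta1 transcript, 2.22% occur in another gene, the cytoplasmic actin Actb among them.

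The MuRF ligases, which mark muscle proteins for degradation, gave calls in both directions. Trim55 (ENSMUSG00000060913, chromosome 3, 19644460 to 19691599) had a mean of 1304 and was 1.55-fold higher in group B according to the authors' deposited table. That is 0.63 on the log2 scale (standard error 0.17 or less, adjusted p 0.0130). Trim54 (ENSMUSG00000062077, chromosome 5, 31116712 to 31137630) had a mean of 2512 and was 1.31-fold lower according to the authors' deposited table. On the log2 scale this was -0.38 (standard error 0.11 or less, adjusted p 0.0241). An antisense gene, Gm15469, covers 26.6% of the exon length of Trim54, at a mean of 1.08 according to the authors' deposited table. Trim63, the ligase best known from muscle atrophy, stood at -0.19 according to the authors' deposited table (adjusted p 0.660). Trim55 made up 16.5% of the implied level of these 3 ligases in group B and 9.49% in group A, and Trim54 made up 41.1% in group B and 47.7% in group A.

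Of the muscle ankyrin repeat proteins, which bind the spring region of titin and are also found in nuclei, Ankrd23 alone was called. Ankrd23 (ENSMUSG00000067653, chromosome 1, 36530534 to 36535729) had a mean of 4477 and was 1.78-fold lower in group B according to the authors' deposited table. This is a log2 fold change of -0.83 (standard error 0.24 or less, adjusted p 0.0169). In GENCODE M21 a further gene on the same strand, Gm42417, covers 88.8% of its exon length. Gm42417 is no row of the authors' deposited table, and how reads that fit both were counted is not stated, so which gene these reads belong to is uncertain. Ankrd1, a cardiac ankyrin repeat protein known to rise under load, had a mean of 21259 and a log2 fold change of -0.72 according to the authors' deposited table. Its adjusted p of 0.0934 missed the threshold (standard error 0.26 or less, unadjusted interval from -1.22 to -0.21). Ankrd2, the skeletal muscle form, had a mean of 3.60 according to the authors' deposited table.

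The M-band genes were not called. Myom1 (mean 41702) stood at -0.08 and Myom2 (mean 34812) at 0.26 according to the authors' deposited table, with adjusted p-values of 0.871 and 0.523. Myom3, a myomesin known from slow skeletal muscle fibres, had the smallest adjusted p of the M-band genes, 0.104, with a log2 fold change of 0.59 and a mean of 82.5 according to the authors' deposited table. Its reads per library, the only ones recovered for a tested member, were 175, 117 and 93 in B1, B2 and B3, against 62, 63 and 36 in A1, A2 and A3. Divided by size factors they were 111.9, 86.4 and 104.4 normalized reads in B1, B2 and B3, against 53.6, 79.1 and 59.3 in A1, A2 and A3. All 3 libraries of group B lay above all 3 of group A, with B2 and A2 the closest. No overlap was also found for 19.2% of the tested genes with recovered reads. The means were 100.9 ± 13.1 in group B and 64.0 ± 13.4 in group A (SD, n = 3 libraries each). The exact permutation test, two-sided, gave p = 0.1, the smallest that 3 against 3 libraries allow. A limma-voom refit of the 4112 genes with recovered reads and a mean of at least 10 called 0.584% of them, and not Myom3, with an adjusted p of 0.212 at a log2 fold change of 0.67 (standard error 0.22).

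Myoz1, a calcineurin-binding Z-disc protein, and Ankrd2 are best known from skeletal muscle and were read here at 11 reads or fewer per library, with no adjusted p. Myoz1 had 6, 4 and 6 reads in B1, B2 and B3, against 4, 3 and 0 in A1, A2 and A3. Ankrd2 had 11, 3 and 3 reads in B1, B2 and B3, against 7, 1 and 1 in A1, A2 and A3. Divided by size factors, the groups overlapped for both genes, with two-sided exact permutation p-values of 0.4 for Myoz1 and 0.5 for Ankrd2. This test cannot go under 0.1 with 3 against 3 libraries, and what size of difference could be detected was not computed.

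Other skeletal muscle genes were read beside them, most at means under 100. Of 15 skeletal muscle markers, 12 had recovered reads, whose sum was 62.0, 76.1 and 61.7 normalized reads in B1, B2 and B3, against 76.1, 87.9 and 89.0 in A1, A2 and A3. The sums of B2 and A1 were almost equal, and the other libraries of group B lay below all of group A. The gap between the groups came from 1 gene, Tnni2, the fast troponin I, singled out after its values were seen. It was at 4.47, 4.43 and 7.86 normalized reads in B1, B2 and B3, against 20.8, 25.1 and 29.7 in A1, A2 and A3. Without Tnni2 the sum of the other 11 was 57.5, 71.7 and 53.9 in B1, B2 and B3, against 55.4, 62.8 and 59.3 in A1, A2 and A3, and the groups overlapped. Of the 3 markers to which the authors' deposited table gave an adjusted p, Mybpc2 (-0.63) and Myl1 (-0.82) were called lower and Myh2 (-0.21) was not. None of the 15 was at 0 over all libraries, and their part in the values of Myom3, Myoz1, Neb and Ankrd2 was not tested.

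**Figure D4:**
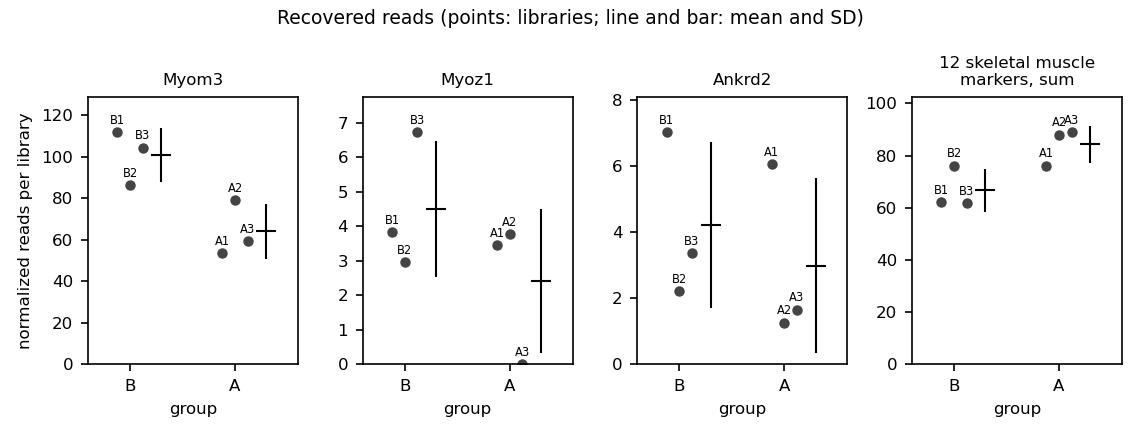
Normalized reads in the libraries of group B and group A for Myom3, Myoz1 and Ankrd2 and for the sum of 12 skeletal muscle markers, with points for libraries and a line and bar for the mean and SD. Myom3 is higher in all 3 libraries of group B, Myoz1 and Ankrd2 overlap, and the marker sum is 61.7 to 76.1 in group B and 76.1 to 89.0 in group A, but overlaps without Tnni2 (53.9 to 71.7 in group B and 55.4 to 62.8 in group A).

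No Z-disc member was called. The 12 tested ones ran from -0.25 for Tcap to 0.24 for Pdlim5 according to the authors' deposited table, and 7 of them were below 0. Tcap, the titin cap, had the smallest adjusted p of these, 0.417, and an interval from -0.52 to 0.03 according to the authors' deposited table. Actn2, the alpha-actinin that crosslinks actin at the Z-disc, had a mean of 30950 and stood at -0.01 according to the authors' deposited table, with an interval from -0.41 to 0.40. Csrp3, a LIM protein of the Z-disc, stood at -0.19 according to the authors' deposited table. Its level of 21646 per kb came after the 27314 per kb of Tcap among the Z-disc members. The intervals of the 12 tested Z-disc members all held 0, and with standard errors of up to 0.30 they do not tell a small change from none.

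The genes of the largest proteins were not called either. Ttn, which encodes titin, had the highest mean of all genes of the authors' deposited table, 1263444 normalized counts or 7.24% of the summed means, and the 39 members together made up 10.8%. Per kilobase of its 114 kb of exons, merged over isoforms, Ttn came sixth among the members, at 11123 per kb. Actc1, Tcap, Csrp3, Mybpc3 and Myoz2 came before it, and ranks by the length of single isoforms were not computed. Its log2 fold change was 0.31 according to the authors' deposited table, with an interval from -0.22 to 0.84 and an adjusted p of 0.700. Nebl, which encodes the cardiac nebulette, stood at -0.16 according to the authors' deposited table (adjusted p 0.555), and Neb, the skeletal nebulin, at 0.14 with a mean of 277.

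None of the remaining members was called. Mybpc3, the cardiac myosin-binding protein C, stood at 0.05 according to the authors' deposited table, with an interval from -0.14 to 0.24, the narrowest of the tested members. The actin-binding Xin repeat genes Xirp1 and Xirp2 stood at -0.18 and -0.04 according to the authors' deposited table, with adjusted p-values of 0.876 and 0.958. Desmin (Des), the intermediate filament that links Z-discs, stood at -0.09 according to the authors' deposited table (adjusted p 0.887). Smpx (-0.03), a small costamere protein, and Myo18b (-0.35), an unconventional myosin needed for sarcomere assembly, had means of 5446 and 7496, and the authors' deposited table gave them no adjusted p. This held for 194 genes in all above the lowest tested mean of 16.0, and the reason is not stated.

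Among related genes outside the members, those of sarcomere assembly and protein quality included 6 lower calls. These were 35.3% of the 17 tested genes of that list. By the same rule 2.49% of all tested genes were lower, and 5.16% of those with a mean of 1000 or more. None of the list rose in group B, and its median log2 fold change was -0.35. Hspb8, a small heat shock protein that works with Bag3, stood at -0.65 according to the authors' deposited table (adjusted p 3.51e-04). Klhl41 (-0.59) and Klhl40 (-0.69), adaptors that stabilise thin filament proteins in skeletal muscle, had adjusted p-values of 0.00143 and 0.00144 according to the authors' deposited table. Cryab, the alpha-crystallin chaperone of desmin, stood at -0.80 according to the authors' deposited table (adjusted p 0.00513). The myosin chaperone Unc45b (-0.63) and the small heat shock protein Hspb1 (-0.80) were the other two.

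Of 41 tested structural genes of the sarcomere and costamere, 3 fell and none rose, with a median of -0.02. They were Cmya5 (-0.89), a costamere protein, Nrap (-0.53), a scaffold of myofibril assembly, and Mybpc2, according to the authors' deposited table. None of 14 tested myosins, troponins and tropomyosins was called, with a median of -0.13. Myl2 came closest, at -0.70 with an adjusted p of 0.0572 according to the authors' deposited table. Among 9 tested SRF and MEF2 factors and cofactors 1 fell and none rose, with a median of -0.01. This was Abra, an actin-binding activator of SRF signalling, which was 2.19-fold lower in group B, with a log2 fold change of -1.13 according to the authors' deposited table (standard error 0.24 or less, adjusted p 1.98e-04). Over all tested genes 2.49% were lower and 1.5% higher, and no list was tested as a set.

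**Figure D5:**
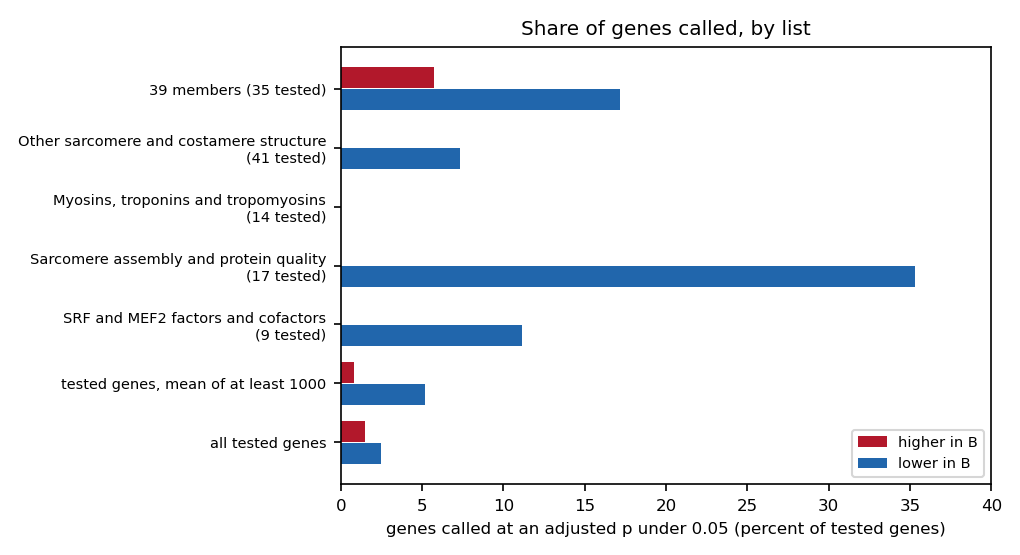
Percent of tested genes called at an adjusted p under 0.05, higher (red) or lower (blue) in group B, for the members, for 4 related lists and for all tested genes. Lower calls reach 35.3% in the assembly and protein quality list and 17.1% in the members, against 5.16% of tested genes with a mean of 1000 or more and 2.49% of all tested genes.

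Markers of the cell types of the ventricle were read beside the members. None of 8 smooth muscle, 7 fibroblast, 6 endothelial and 6 atrial genes tested was called. Their median log2 fold changes were 0.12, 0.16, 0.00 and -0.13. Des and Synpo2 among the smooth muscle genes, and Myoz2 among the ventricular cardiomyocyte markers, are also members. Of 4 tested macrophage markers Mrc1 was higher (0.46), and none of 3 tested red cell markers was called, with a median of 0.34. Of 11 ventricular cardiomyocyte markers 2 fell, Nppb (-1.15) and Lrrc10 (-0.96) according to the authors' deposited table. The median of the 11 was -0.14, and Myl3 (0.13) alone was above 0. Myl2 (-0.70) and Ryr2 (-0.71) missed the threshold, with adjusted p-values of 0.0572 and 0.0671 according to the authors' deposited table. Over all tested genes 2.49% were lower and 1.5% higher. The part of these markers in the calls of the members was not tested. Over the 35 tested members the log2 fold change went with genomic span at a Spearman rho of 0.36, with exon length at 0.37 and with the mean at -0.24, as descriptions of genes that share the same libraries. Over all coding genes the median log2 fold change was -0.09 among the shortest 10% by span and 0.11 among the longest 10%.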

How the data were processed

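RNA sequencing of cardiac ventricles was analysed from 1 table that the authors deposited. Per the submitters' processing notes the tools included Bowtie2 2.0 and DESeq2, and the build was mm9. Of 36602 matched gene identifiers, however, 69.6% had coordinates identical to GENCODE M21, so coordinates are given as GRCm38. Among the 39 members, 20 had identical coordinates, and the exon lengths of all members are those of GENCODE M21. The mean normalized count that the authors deposited is a signal over all libraries. The authors' log2 fold change is a shrunken one, and their p-value is adjusted over the genes they tested, with calls made under 0.05. No count test was made on the table, which has no column per sample.

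The largest p that each adjusted p allows was found by inverting the Benjamini-Hochberg adjustment, and the fold change over its normal quantile gave the largest standard error and the 95% interval. Means under 100 were solved as whole reads of 6 libraries, whose single-read means were each shared by at least 100 genes. Exactly 1 set of reads was found for 13372 of 13403 genes (99.8%), within a relative difference of 5.00e-15 of the deposited mean. The sign of the deposited fold change of genes with a single read gave each library its letter. In genes with a mean of 50 to 100, the recovered and deposited log2 fold changes differed by a median of 0.03. Recovered reads with a mean of at least 10 were refitted with limma 3.58.1 (voom, R 4.3.3, tested on simulated data). Single genes were tested by the exact permutation test of scipy 1.17.1 on log2(normalized reads + 1).

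Members, lists and tests were chosen with earlier results of these data known. The rule names every called member, every member with recovered reads, the 5 highest and 3 lowest by mean, the member with the smallest adjusted p per role, and up to 4 called genes per related list. The other members and Unc45b, Hspb1, Myl2, Myl3 and Ryr2 were named after their values were seen. Thresholds, centring, scaling and left-out libraries were varied. Protein sequences were not used here.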

Additional observations from a re-analysis of the deposited data

How the results depend on the processing

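Under a threshold of 0.01 the authors' deposited table called 4 members, 1 higher (Fhl1) and 3 lower (Fhl2, Lmod2 and Actc1), where 0.05 gave 8, 2 higher and 6 lower. The counts stayed within 1.5 times at 0.1 (9 members, Ankrd1 added), with a mean of at least 50, adjusted over protein-coding genes only, with the fold size of 0.5 (6) and, chosen after seeing the data, without Ankrd23 and Trim54 (6). Centring on all tested genes, on the tenth of mean and on the tenth of genomic span kept the sign of all 8 called members, with a shift of at most 0.11. The members' median of -0.09 was -0.01 when centred on the tenth of mean and -0.11 on the tenth of span.

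For Myom3 the difference of mean log2 values, 0.66, ran from 0.54 to 0.82 with 1 library left out and was 0.53 with size factors over the recovered genes, which move log2 levels of group B against group A by -0.13 before the pseudocount. Under the same size factors Ankrd2 stood at 0.37 and Myoz1 at 0.83. The refit left Myom3 uncalled in every setting run, with adjusted p-values from 0.121 to 0.665. For Myoz1 the difference of 0.93 was 0.20 without A3, where it had no read, and 0.38 with a pseudocount of 5. For Ankrd2 the difference of 0.47 was 0.11 without B1, 0.16 without A2, 0.28 without A3, 0.77 without B2 and 0.98 without A1, and 0.22 with a pseudocount of 5. Their deposited shrunken log2 fold changes were 0.26 for Myoz1 and 0.14 for Ankrd2. The refit called 24 of 4112 genes, 39 of 8391 with a mean of at least 1, 31 with the other size factors, and from 2 (without A1 or A2) to 161 (without B3) with 1 library left out, and the cause was not tested. No paired analysis was possible because the labels name 1 sample per group and the file carries no replicate numbers. Reads per library of the 8 called members were not recovered, so no library could be left out for them.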
